A study of Mus musculus with 7 samples.

Results

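T-box genes were measured in the posterior second heart field (pSHF) of *Shh* mutant and wild-type mouse embryos at E9.5. All probes on the array that carry the name *Tbx1*, *Tbx2*, *Tbx3*, *Tbx4*, *Tbx5*, *Tbx6*, *Tbx15*, *Tbx18* or *Tbx20* were taken, which gave 18 probes for 9 genes out of 41174 probes and 21475 gene names. The pSHF is the tissue behind the forming heart that supplies the atrial septum and the inflow. RNA came from pools of dissected tissue, 4 pools from *Shh* -/- embryos and 3 from *Shh* +/+ embryos, bred by crossing *Shh* +/- parents of a mixed background labelled C56B/6 and CD-1, with superovulated females. *Shh* is lost in the whole embryo of the mutants, so the foregut attached to the tissue lacks it too. The labels do not give the number of embryos in a pool. Each pool was hybridized to 1 single-colour array, and no treatment distinguished the groups.

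T-box proteins are transcription factors that bind DNA through the domain that names the family. In the second heart field they divide the tissue: *Tbx1* is known for the anterior and pharyngeal part that builds the outflow tract, and *Tbx5* for the posterior part that builds the atria and their septum. The other members mark neighbouring tissues, among them the sinus venosus (*Tbx18*), myocardium (*Tbx20*), atrioventricular canal (*Tbx2* and *Tbx3*), hindlimb (*Tbx4*) and presomitic mesoderm (*Tbx6*). Sonic hedgehog, secreted by the foregut endoderm, signals to this field through the Gli factors.

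There were 7 arrays on 4 slides. The pools of both genotypes with the numbers 1, 3 and 4 were each hybridized on a common slide. The first position of a slide held the mutant and the second the wild type throughout, so an effect of position cannot be told apart from genotype. Mutant pool 2 shared its slide with no other of the 7 arrays, and its label says that the array may have leaked during hybridization. Between 60.01% and 70.7% of probes were well above background on an array. Levels below are log2 of the mean spot signal after background correction and variance-stabilizing normalization, and changes are mutant minus wild type on that scale, tested with limma and Benjamini-Hochberg adjustment over the 23124 probes tested. As a check of the labels, the Hedgehog antagonist and target *Hhip* was lower by 2.83 (adjusted p = 0.00126). *Shh* itself (change −1.08, adjusted p = 0.0653), *Gli1* (−1.02, 0.0673) and *Ptch1* (−1.17, 0.143) did not pass the threshold, and for each of the 4 genes every mutant array lay below every wild-type array. Where the *Shh* probe lies relative to the deleted sequence is not given in the sources used here.

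Of the 18 T-box probes, 12 probes of 8 genes were tested, being well above background on all mutant arrays, all wild-type arrays or both. None of the 12 was called at an adjusted p under 0.05 by limma, where 0.558% of all probes tested were called, and the lowest adjusted p of a member was 0.238. At an unadjusted p under 0.05 there were 4 of the 12 (33.3%), 2 lower and 2 higher, against 7.96% of all probes tested. These 4 probes belong to 3 genes, *Tbx1*, *Tbx3* and *Tbx18*. The *Tbx3* probe was dim in the mutants and entered the test only through the wild-type arrays. Of the 11 probes well above background on all 7 arrays, 3 had an unadjusted p under 0.05, against 7.07% of all such probes. Under the other processings the count of 4 ran from 0 in the authors' values, and 2 with 75th percentile scaling, quantile normalization, no background correction or without wild-type pool 4, to 6 without mutant pool 4. The count over all probes moved too. It was 1841 of 23124 as reported and 28 of 23110 in the authors' values. It was 1627 to 1723 in the processings named with 2, and 2130 of 23124 without mutant pool 4. Read by the brightest probe, 5 genes had a lower mean in the mutants and 3 a higher one. The median size of the change over the brightest probes of the 8 genes, whatever its sign, was 0.39. It was 0.505 over the 12 member probes, against 0.10 over all probes tested. The median signed change was −0.05 over the 8 brightest probes and 0.02 over all probes. The size of a change also grows with the spread between pools. The pooled SD between arrays of a genotype had a median of 0.19 over the probes tested. For the 8 brightest member probes the SD was taken in each genotype alone. It ran from 0.16 (*Tbx2*) to 0.98 (*Tbx20*) in mutants and from 0.13 (*Tbx6*) to 0.43 (*Tbx15*) in wild type. The share of this spread in the contrast was not tested. In the authors' own normalized values the median change of all probes is −0.54, so that every change and list median is shifted downwards there. Changes are given here on a scale where that median is near 0. The groups of arrays separated without overlap for 1 of the 12 probes (8.33%), against 8.34% of all probes with values on every array. It was higher in the mutants, as were 4.78% of all probes. No probe was lower in every mutant than in every wild type, against 3.56%. The pools are the replicates, and in such tissue pools fewer cells of a type and less RNA per cell cannot be told apart.

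**Figure D1:**
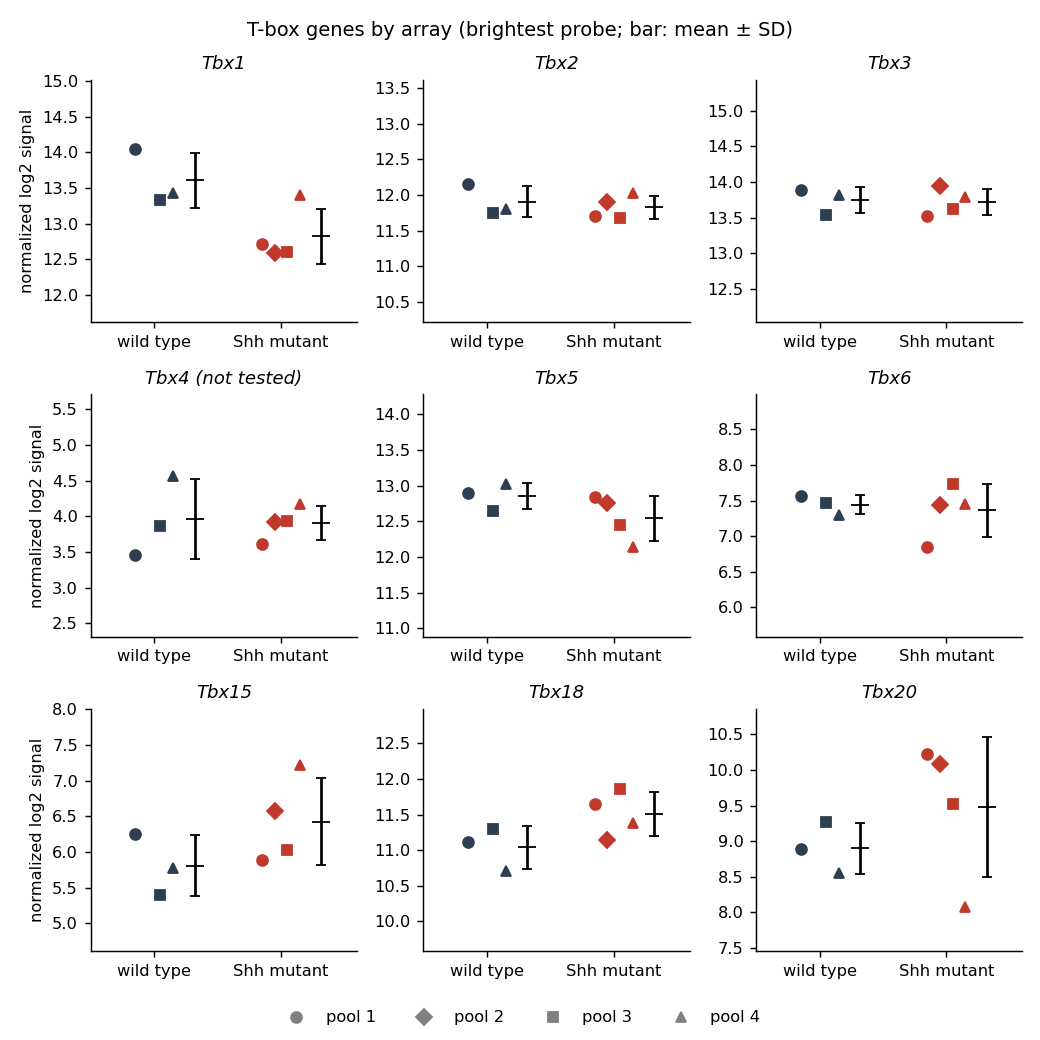
Normalized log2 signal of the brightest probe of each of the 9 T-box genes on 3 wild-type and 4 *Shh* mutant arrays, with the marker shape giving the pool number and the bars the mean ± SD. Each panel spans the same number of log2 units, the genotypes overlap in every panel, and mutant pool 4 is the highest mutant for *Tbx1* (13.40) and the lowest array for *Tbx20* (8.08).

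*Tbx1*, which is needed in the pharynx and anterior field and is the gene tied to the heart defects of DiGeorge syndrome, had the largest change by size among the brightest probes of the 8 genes tested. It has 1 probe on the array, and its first 30 bases lie on the minus strand at chr16:18581846-18581875 (mm9). They are shown because this probe alone carries the *Tbx1* result and its sequence is repetitive, with each copy of a repeated 7-base word in capitals:
Tbx1: gTGTAGATatgTGTAGATacTGTAGATact
Only 0.493% of the 41174 probes hold any 7-base word 3 times or more, and no other T-box probe does. The signal was 12.71, 12.59, 12.60 and 13.40 in mutant pools 1 to 4 and 14.05, 13.34 and 13.43 in wild-type pools 1, 3 and 4. Mutant pools 1 to 3 lay below all wild-type pools, while mutant pool 4 lay above wild-type pool 3, so the groups overlap. The mean was 12.82 ± 0.39 (SD, n = 4) in mutants and 13.61 ± 0.39 (SD, n = 3) in wild type, a change of −0.78 (SE 0.24) that did not pass the threshold (limma adjusted p = 0.309, unadjusted p = 0.0105). The mutant signal was 58.1% of the wild-type signal. The exact two-sided permutation test over the arrays gave p = 0.0857, where the smallest value that 35 splits allow is 0.0286.

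*Tbx1* was lower in the mutant array of all 3 slides, but by unequal amounts. The difference was −1.34 on the slide of pools 1, −0.74 on that of pools 3 and −0.03 on that of pools 4. Leaving out mutant pool 4 moved the change to −0.98, and the call did not change (adjusted p = 0.104). Leaving out wild-type pool 1, the highest array, moved it to −0.56.

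Genes that mark the anterior field and pharyngeal mesoderm were measured beside *Tbx1*. All 14 genes of the list were tested and none was called, 8 were lower and 6 higher, and the median change was −0.16 (−0.09 without mutant pool 4 or without wild-type pool 1). *Fgf8*, a growth factor of the pharynx and outflow tract, had values from 6.59 to 7.94 in mutants and from 8.22 to 9.19 in wild type, a change of −1.61 (adjusted p = 0.0894). *Eya1*, a transcriptional cofactor of pharyngeal development, ranged from 10.47 to 10.97 in mutants and from 11.35 to 12.06 in wild type, with a change of −1.04 (adjusted p = 0.0653). Neither gene passed the threshold, although their mutant arrays all lay below their wild-type arrays. Pharyngeal endoderm, another tissue that expresses *Tbx1*, was followed by 11 genes, of which 7 were tested. *Pax1* and *Pax9*, transcription factors of the pharyngeal pouches and also of the sclerotome, passed the test. *Pax1* fell by 3.01 (adjusted p = 0.0424). *Pax9* had means of 4.29 in mutants and 6.84 in wild type. It was well above background in 1 of 4 mutants and passed the filter through the wild types (change −2.55, limma adjusted p = 0.0356). With the mutant signals raised to the lowest one well above background on their array, the mutant mean was 4.90-fold lower. That value is not a lower limit, since the fitted change ran from −3.24 to −1.27 under the alternative processings. Of the 7 genes, 6 were lower and 1 higher, with a median of −0.40 that is the value of *Sox2*. The higher one was *Hhex*, a homeobox gene of foregut endoderm and liver bud, at 11.43 to 11.81 in mutants and 10.93 to 11.25 in wild type (change 0.55, adjusted p = 0.148). Under the 16 alternative processings *Pax1* and *Pax9* kept their direction and were called in 6 and 5. The summed linear signal of the 7 genes tested was 15708 to 18133 in mutants and 18024 to 21252 in wild type. *Foxa2*, the brightest of them, carried most of that sum, at 13.48 to 13.76 in mutants and 13.72 to 14.00 in wild type (change −0.25). *Gcm2*, *Foxn1*, *Foxe1* and *Pax8* of this list were too close to background for a test. The part of the pharyngeal endoderm in the *Tbx1* values was not tested.

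*Tbx5* drives atrial and septal development and is mutated in Holt-Oram syndrome. Its fitted change was smaller in size than that of *Tbx1*, but the test given below did not separate the 2 changes. Its brighter probe read 12.84, 12.75, 12.45 and 12.14 in mutant pools 1 to 4 and 12.90, 12.65 and 13.02 in wild-type pools 1, 3 and 4. The mutant arrays reached from within the wild-type range to below it, with mutant pool 4 lowest. The means were 12.55 ± 0.32 (SD, n = 4) and 12.86 ± 0.19 (SD, n = 3), a change of −0.31 (95% interval −0.73 to 0.10, limma adjusted p = 0.871). The mutant array was lower on all 3 slides, by −0.06, −0.21 and −0.88. The second *Tbx5* probe, whose 60 bases are spread over 11563 bp of genome and so cross at least 1 intron, gave a change of −0.11 (95% interval −0.62 to 0.39). On that probe mutant pool 4 was the highest mutant, at 7.22, and wild-type pool 4 the highest of all, at 7.47. The 2 probes therefore place mutant pool 4 at opposite ends of the mutants.

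The posterior field genes and the genes known as *Tbx5* targets gave the setting for this value. Of 12 posterior field genes tested, 1 was called, *Foxf2*, a forkhead factor of the mesenchyme next to the gut, which fell by 2.43 (adjusted p = 0.00216) and was called in 14 of the 16 alternatives. The other 11 were not called, and the median over the 12 was −0.07, or 0.04 in the authors' values on 1 median and −0.13 to −0.03 with 1 array left out. Of the 12, 8 were lower and 4 higher. *Foxf1a* was 6.75 to 7.32 in mutants and 7.60 to 7.99 in wild type (change −0.80, limma adjusted p = 0.0926). Of 11 *Tbx5* target genes 10 were tested and none was called, with 4 lower, 6 higher and a median of 0.17 (−0.38 in the authors' values, 0.23 on 1 median). That median was −0.04 without mutant pool 1 or without wild-type pool 4, 0.06 without mutant pool 3 and 0.38 without mutant pool 4. *Osr1*, a zinc finger factor of the posterior field that stands on both lists, ranged from 10.28 to 11.08 in mutants and from 11.34 to 12.01 in wild type (change −0.88, adjusted p = 0.232). *Gas1*, a Hedgehog co-receptor, ranged from 12.04 to 12.44 in mutants and from 11.72 to 11.91 in wild type (change 0.40, adjusted p = 0.338). *Nppa*, *Myh6*, *Ryr2* and *Atp2a2* of the target list are myocardial genes whose lowest array was mutant pool 4.

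The anterior and posterior field genes were set against each other within each array, which removes the scale of the array. *Tbx1* minus *Tbx5* was −0.13, −0.17, 0.15 and 1.26 in mutant pools 1 to 4 and 1.16, 0.69 and 0.41 in wild-type pools 1, 3 and 4. Mutant pools 1 to 3 lay below every wild-type pool and mutant pool 4 above every one. The means were 0.28 ± 0.67 (SD, n = 4) and 0.75 ± 0.38 (SD, n = 3), and they differed by −0.47, which the exact two-sided permutation test did not separate from 0 (p = 0.314). Within slides the difference was −1.29, −0.53 and 0.84, so the slide of pools 4 ran the other way. A larger change of *Tbx1* than of *Tbx5* was thus not shown by these arrays. Without mutant pool 4 the difference was −0.80 (range with each array left out in turn, −0.80 to −0.27).

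**Figure D2:**
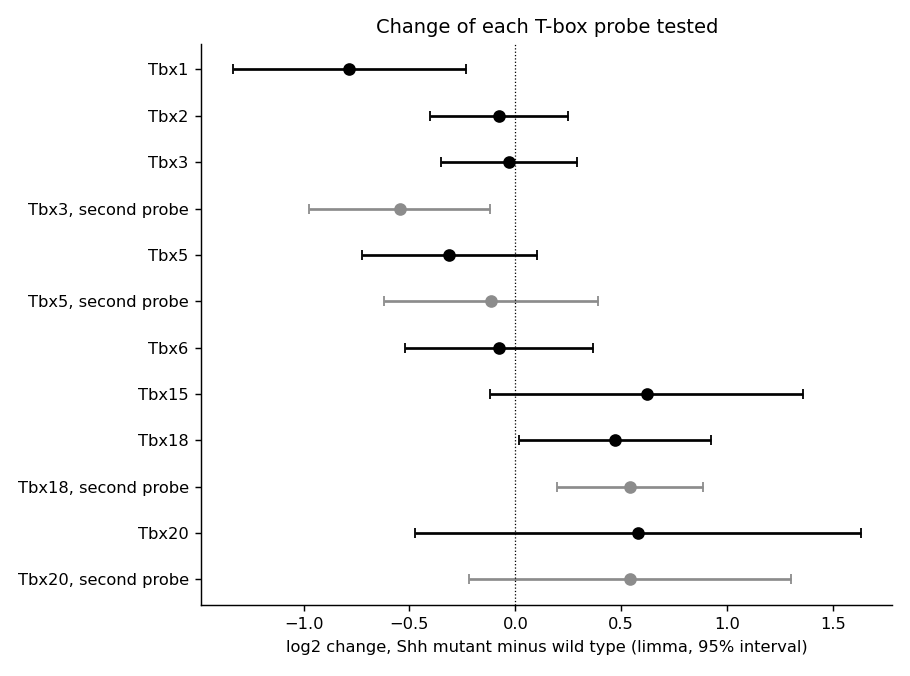
Log2 change between *Shh* mutant and wild-type arrays, with its 95% interval from limma, for the 12 T-box probes tested; black points are the brightest probe of a gene and grey points its second probe. The interval lies below 0 for *Tbx1* and the dim second *Tbx3* probe and above 0 for both *Tbx18* probes, and no probe passed after adjustment.

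*Tbx2* and *Tbx3*, repressors that keep the atrioventricular canal and conduction system from becoming chamber muscle, showed changes near 0. *Tbx2* ranged from 11.68 to 12.02 in mutants and from 11.75 to 12.16 in wild type, a change of −0.08 (95% interval −0.40 to 0.25). The brighter *Tbx3* probe ranged from 13.53 to 13.94 in mutants and from 13.54 to 13.88 in wild type, a change of −0.03 (95% interval −0.35 to 0.29). Both ranges overlap nearly in full. The second *Tbx3* probe lies 11.7 kb upstream of the first and was well above background in 2 of 4 mutant and 3 of 3 wild-type arrays. It read 4.15, 4.69, 4.81 and 4.63 in mutant pools 1 to 4 and 5.32, 4.81 and 5.22 in wild-type pools 1, 3 and 4, with means of 4.57 and 5.12. With the mutant signals raised to the lowest one well above background on their array, the mutant mean was 1.37-fold lower. That value is not a lower limit, since the 95% interval of the fitted change was −0.97 to −0.12 (limma adjusted p = 0.390). The groups overlapped at pools 3, and the probe passed the filter only through the wild types. Its fitted change of −0.55 was −0.27 with no background correction, −0.16 with quantile normalization and −0.14 in the authors' values on 1 median. Of the 9 atrioventricular canal genes tested none was called, 8 were higher and 1 lower, and the median was 0.27 (−0.36 in the authors' values, 0.25 on 1 median, 0.15 without mutant pool 4). The Notch target *Hey2* was 7.39 to 7.69 in mutants and 6.73 to 7.18 in wild type (change 0.49, adjusted p = 0.263). *Msx1*, a homeobox gene of the cushions and limb buds, was 10.18 to 10.70 in mutants and 9.76 to 10.38 in wild type (change 0.32, adjusted p = 0.868).

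The T-box genes lie partly in linked pairs. *Tbx2* and *Tbx4* lie next to each other on chromosome 11, with 70.1 kb between their nearest probes (mm9). *Tbx4* is known for hindlimb and lung mesenchyme, and neither of its 2 probes was well above background in any mutant array, or in more than 1 wild-type array, so it was not tested. Its brighter probe read 3.61 to 4.18 in mutants and 3.46 to 4.56 in wild type. *Tbx3* and *Tbx5* lie on chromosome 5, with 199.6 kb between their brightest probes. The brightest probes of *Tbx2*, *Tbx3* and *Tbx5* were well above background on all 7 arrays. Of 10 limb bud genes 5 were tested, with 3 higher, 2 lower and a median of 0.32 (0.14 without wild-type pool 1, −0.27 in the authors' values, 0.33 on 1 median). The lower ones were *Prrx1* (−0.08) and *Prrx2* (−0.04). Only *Pitx1*, a homeobox gene of the hindlimb that acts on *Tbx4*, was called. It rose by 0.93 (limma adjusted p = 0.0455), a call that 4 of the 16 alternatives gave as well. *Pitx1* read 11.74 to 11.91 in mutants and 10.58 to 11.24 in wild type. The limb genes *Hoxd12*, *Hoxd13*, *En1*, *Lmx1b* and *Hoxa13* did not reach the background limit needed for a test.

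*Tbx6*, which drives presomitic mesoderm formation, was well above background on all 7 arrays. It is read by 1 probe, on the plus strand, whose last 30 bases lie at chr7:133929029-133929058 (mm9). *Tbx18*, a gene of the sinus horns and proepicardium, is read by 2 probes, and the last 30 bases of its brighter one lie on the minus strand at chr9:87599514-87599543 (mm9). Both stretches are shown because they hold AATAAA, the usual signal for cleavage and polyadenylation, in capitals, which 4.78% of the array's probes contain and no other T-box probe does:
Tbx6: gagtatttttgttAATAAAactccaaagac
Tbx18: tctgaggtatctatagcAATAAAggcttag
The match is a description of the probe's letters. No probe of one member shared more than 9 bases in a row with a probe of another.

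*Tbx6* read 6.85, 7.43, 7.73 and 7.45 in mutant pools 1 to 4 and 7.56, 7.46 and 7.30 in wild-type pools 1, 3 and 4. Mutant pool 1 was lowest and mutant pool 3 highest, so the mutants spanned the wild-type range on both sides. The change was −0.08 (95% interval −0.52 to 0.37). Of 10 presomitic mesoderm genes, 5 were tested and none was called, with all 5 lower and a median of −0.10. *Lfng*, which tunes Notch in the segmentation clock, was 4.67 to 5.06 in mutants and 5.30 to 5.55 in wild type (change −0.62, adjusted p = 0.101), and was well above background in 3 of 4 mutants. *Dll3*, a Notch ligand of the same tissue, was 8.24 to 8.73 in mutants and 8.95 to 9.20 in wild type (change −0.62, adjusted p = 0.133). *Msgn1*, *Mesp1*, *Hes7* and *Wnt3a*, which define that tissue, were too close to background for a test.

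*Tbx18* was higher in the mutant on each of the 3 slides that held both genotypes. The brighter probe read 11.65, 11.14, 11.85 and 11.39 in mutant pools 1 to 4 and 11.12, 11.29 and 10.71 in wild-type pools 1, 3 and 4. Mutant pool 2 lay between the wild-type pools, and the other 3 mutant pools lay above them. The means were 11.51 ± 0.31 (SD, n = 4) and 11.04 ± 0.30 (SD, n = 3), a change of 0.47 (SE 0.20, unadjusted p = 0.0440, limma adjusted p = 0.594). The second probe lies 0.237 kb upstream and read 7.60, 7.40, 7.81 and 7.41 in the mutant pools and 6.85, 7.28 and 6.92 in the wild-type pools. It was higher in every mutant array than in every wild-type array, a change of 0.54 (SE 0.15, unadjusted p = 0.0063, limma adjusted p = 0.238). Its exact two-sided permutation p was 0.0286, the smallest the design can give. The differences within these slides were 0.53, 0.56 and 0.68 for the brighter one and 0.76, 0.53 and 0.49 for the other. Without wild-type pool 4 the change of the brighter probe was 0.30. In the authors' values the changes were −0.17 and −0.0079, and with those values set to 1 median per array 0.44 and 0.60.

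Genes of the sinus venosus and proepicardium, the tissue that *Tbx18* marks, were read beside it. All 8 of the list were tested, none was called, 7 were higher and 1 lower, and the median change was 0.58, or −0.06 in the authors' values before and 0.55 after they were set to 1 median. *Wt1*, a zinc finger factor of the proepicardium and mesothelium, was 11.16 to 11.62 in mutants and 10.29 to 10.66 in wild type (change 0.83, adjusted p = 0.0607). *Sema3d*, a guidance ligand of the proepicardium, was 8.13 to 8.73 in mutants and 7.46 to 7.95 in wild type (change 0.70, adjusted p = 0.160). The mutant and wild-type arrays of both genes were apart. The summed linear signal of the 8 genes was 9751 to 12994 in mutants and 7305 to 8790 in wild type. The sinus node genes *Shox2* and *Hcn4* on the same list had changes of −0.01 and 0.07. The liver bud lies next to this tissue, and of its 8 genes tested 4 rose, *Alb*, *Ttr*, *Fga* and *Fgb*, which encode plasma proteins, by 1.22, 0.91, 1.45 and 0.82 (adjusted p = 0.0494, 0.0319, 0.0439 and 0.0493). They stayed higher under all 16 alternatives but were called in only 2, 5, 4 and 2 of them. The other 4 were higher without passing, the median was 0.88, and the summed linear signal was 147532 to 200463 in mutants and 135049 to 147619 in wild type. *Afp* carried most of that sum, at 16.68 to 17.33 in mutants and 16.78 to 16.97 in wild type (change 0.17). The part of these tissues in the *Tbx18* values was not tested.

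**Figure D3:**
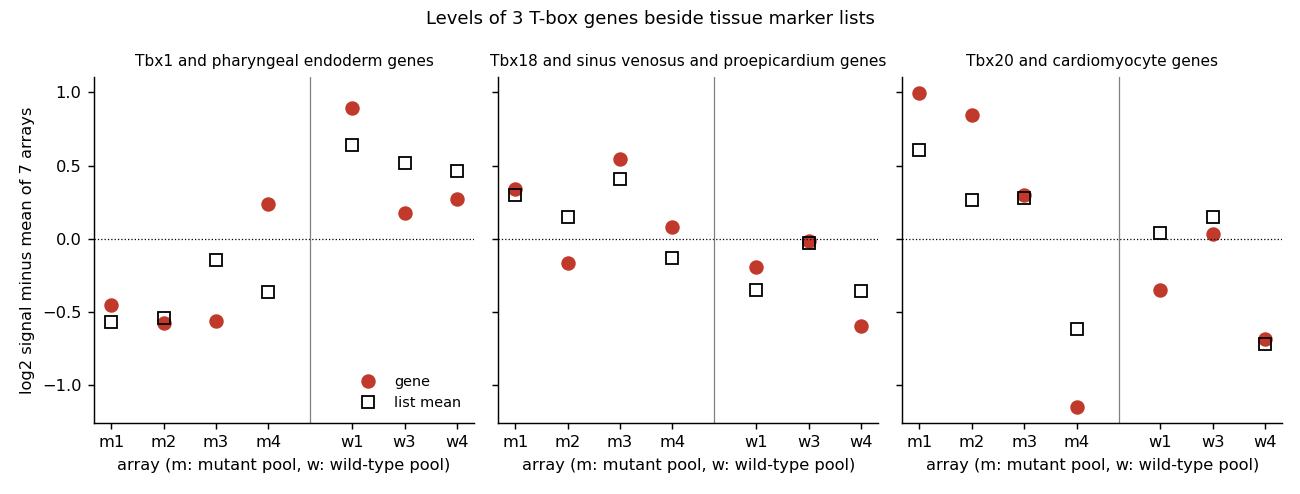
Deviation of each array from the mean of the 7 arrays, in log2 units, for *Tbx1*, *Tbx18* and *Tbx20* (filled points) and for the mean of the genes of 1 tissue list each (open squares), with mutant pools m1 to m4 left of the line and wild-type pools w1, w3 and w4 right of it. For *Tbx20* both pools numbered 4 are lowest in gene and list alike.

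*Tbx20*, a factor of the myocardium and endocardium, had the widest spread among mutant pools. Its brightest probe read 10.23, 10.08, 9.53 and 8.08 in mutant pools 1 to 4 and 8.88, 9.27 and 8.55 in wild-type pools 1, 3 and 4. Mutant pools 1 to 3 lay above all wild-type pools and mutant pool 4 below all of them. The means were 9.48 ± 0.98 (SD, n = 4) and 8.90 ± 0.36 (SD, n = 3), a change of 0.58 (95% interval −0.47 to 1.63, limma adjusted p = 1.00). The second probe gave 0.54 (95% interval −0.22 to 1.30) with mutant pool 4 again lowest, at 7.60. The slide differences of the brightest probe were 1.34, 0.26 and −0.47. Its change was 0.33 without mutant pool 1 and 0.38 without mutant pool 2. Without mutant pool 4 it was 1.04, which did not pass either (adjusted p = 0.140), and in the authors' values it was −0.07, or 0.54 on 1 median. The remaining 2 *Tbx20* probes lie 18.9 and 26.9 kb upstream of the last one and were well above background on 2 and 3 of the 7 arrays, so they were not tested.

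Heart muscle was excluded by the dissection as the methods describe it, yet the cardiomyocyte genes were well above background on all arrays, with list means of 13.35 to 14.58 in mutants and 13.25 to 14.12 in wild type. All 12 were tested, none was called, all 12 had higher means and the median was 0.26, which went to −0.0094 without wild-type pool 4, 0.08 without mutant pool 1, 0.50 without mutant pool 4, and in the authors' values to −0.09, or 0.52 on 1 median. The list mean was 14.58, 14.24, 14.25 and 13.35 in mutant pools 1 to 4 and 14.01, 14.12 and 13.25 in wild-type pools 1, 3 and 4. The pools numbered 4 were lowest in both genotypes, as they were for *Tbx20*. The summed linear signal was 291587 to 458902 in mutants and 237443 to 370976 in wild type. *Myl2*, the ventricular light chain, was 9.77 to 11.74 in mutants and 8.62 to 10.69 in wild type (change 1.24, adjusted p = 0.670). *Tnni1*, a troponin of embryonic muscle, was 13.86 to 14.40 in mutants and 13.33 to 14.19 in wild type (change 0.37, adjusted p = 0.839). The part of heart muscle in the *Tbx20* values was not tested.

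*Tbx15*, known for mesenchyme of the limb, trunk and skin, had a higher mean in the mutants. Its brightest probe read 5.88, 6.57, 6.03 and 7.22 in mutant pools 1 to 4 and 6.25, 5.39 and 5.77 in wild-type pools 1, 3 and 4. Mutant pool 4 was highest, and the groups overlapped through mutant pools 1 and 3. The change was 0.62 (95% interval −0.12 to 1.36, limma adjusted p = 0.786), with slide differences of −0.37, 0.64 and 1.45. It was 0.36 without mutant pool 4, 0.41 without wild-type pool 3, 0.39 with quantile normalization and 0.14 in the authors' values. The second probe, 0.279 kb upstream, was well above background on 5 of 7 arrays, and the remaining one on none.

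**Figure D4:**
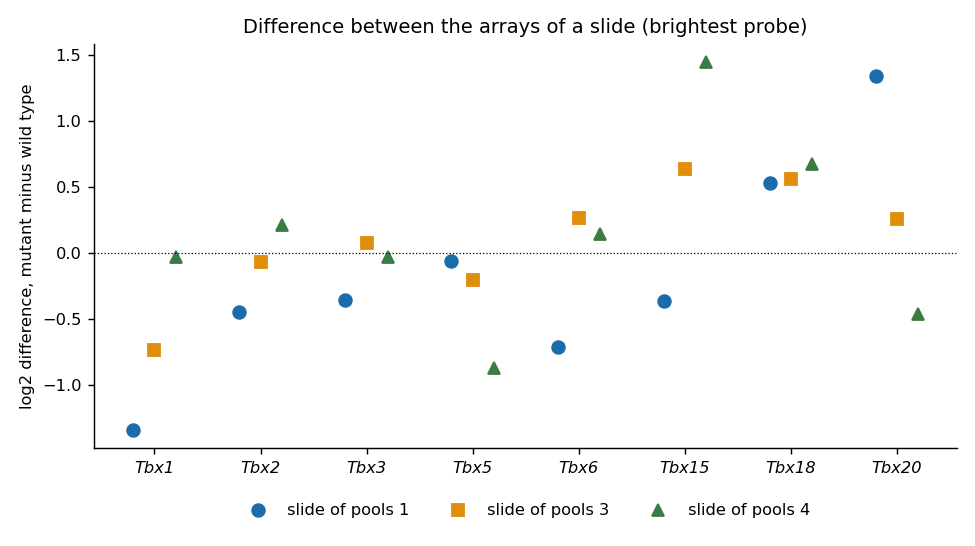
Log2 difference between the mutant and wild-type array of each of the 3 shared slides, for the brightest probe of the 8 T-box genes tested. All 3 slides fall below 0 for *Tbx1* and *Tbx5* and above 0 for *Tbx18*, and fall on both sides for the other 5 genes.

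By the brightest probe, the difference on the slide that carried pools 4 was the highest of the 3 slides for *Tbx1*, *Tbx2*, *Tbx15* and *Tbx18*. It was the lowest for *Tbx5* and *Tbx20*. For the second *Tbx18* probe it was the lowest as well, at 0.49 against 0.76 and 0.53. Among 3 slides any 1 is often the highest or lowest by order alone, and an effect of this slide was not tested. With mutant pool 4 left out, 6 of the 12 member probes had a limma unadjusted p under 0.05, against 2130 of all 23124 probes tested. No member probe was called after adjustment.

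Of the other T-box genes on the array, *T*, *Tbr1*, *Eomes*, *Mga*, *Tbx10*, *Tbx19*, *Tbx21* and *Tbx22*, 3 were tested and none was called. *T* (brachyury), the notochord and primitive streak factor, was 3.85 to 4.205 in mutants and 4.53 to 5.28 in wild type. It was well above background in 1 of 4 mutants and passed the filter through the wild types (change −0.82, limma adjusted p = 0.113). With the mutant signals raised to the lowest one well above background on their array, the mutant mean was 1.55-fold lower. That value is not a lower limit, since the interval that limma gave for the fitted change was −1.22 to −0.41. *Tbx21*, a T-cell factor, was 4.89 to 5.11 in mutants and 5.36 to 5.78 in wild type (change −0.50, adjusted p = 0.201), and was well above background in 3 of 4 mutants. *Mga*, a large T-box and Max-binding protein, had no value on mutant pool 2 because its spot was an outlier there, and its change over the remaining 6 arrays was 0.18. The other 5 were too close to background for a test.

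The genes whose levels followed those of *Tbx1* most closely over the 7 arrays were *Fgd6* (Pearson r = 0.98) and *Spsb4* (0.98), the highest of 14837 genes compared, of which 88 had r above 0.9. For *Tbx5* they were *Ston2* (0.96), *Eif4ebp2* (0.95) and *Foxp2* (0.95), with 23 genes above 0.9. With 7 arrays that share 4 slides and 2 genotypes these are descriptions of likeness. Between *Tbx1* and *Tbx5* r was 0.17 over the same arrays, and between *Tbx1* and *Tbx20* it was −0.72.

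RefSeq promoters (GRCm38, 250 bases before to 50 after the start) were at hand for 5 of the 9 members, *Tbx1*, *Tbx4*, *Tbx6*, *Tbx18* and *Tbx20*, as 6 windows. They were searched on both strands for the GLI site GACCACCCA, the T-box half-site AGGTGTGA and its core GGTGTG, which the half-site contains. None of the 6 windows held any of them, while 0.253%, 1.28% and 19.05% of the 32851 promoters in the table did.

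Among the tissues next to the field, no neural tube gene was called (7 tested, all lower, median −0.40), and *Nkx6-1*, a factor of neural progenitors, had a change of −0.85 (adjusted p = 0.0676). That median is the value of *Sox2*, which is on the pharyngeal endoderm list too and gives its median as well. The methods describe removal of the neural tube. *Nkx6-1* was the brightest of the 7, with means of 11.28 in mutants and 12.14 in wild type. *Sox1*, *Nkx2-2* and *Lhx3* were too close to background for a test. Which tissue gave the *Nkx6-1* signal was not tested. No erythroid gene was called (8 tested, all lower, median −0.39, or −0.12 without wild-type pool 1 and −0.10 in the authors' values on 1 median), and *Klf1*, an erythroid transcription factor, had a change of −0.53 (adjusted p = 0.503). Of 10 sclerotome genes tested, *Pax1* and *Pax9*, given above, were called, and the median was −0.14 (−0.06 to −0.23 with 1 array left out, nearest 0 without wild-type pool 1). The summed linear signals were 3021 to 4741 against 5791 to 6470 for the neural tube list, 316401 to 488637 against 428429 to 735458 for the erythroid list, and 11141 to 14326 against 11995 to 16737 for the sclerotome list, mutants first. *Nkx6-1* carried most of the neural tube sum. The part of these 3 tissues in the T-box values was not tested.

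**Figure D5:**
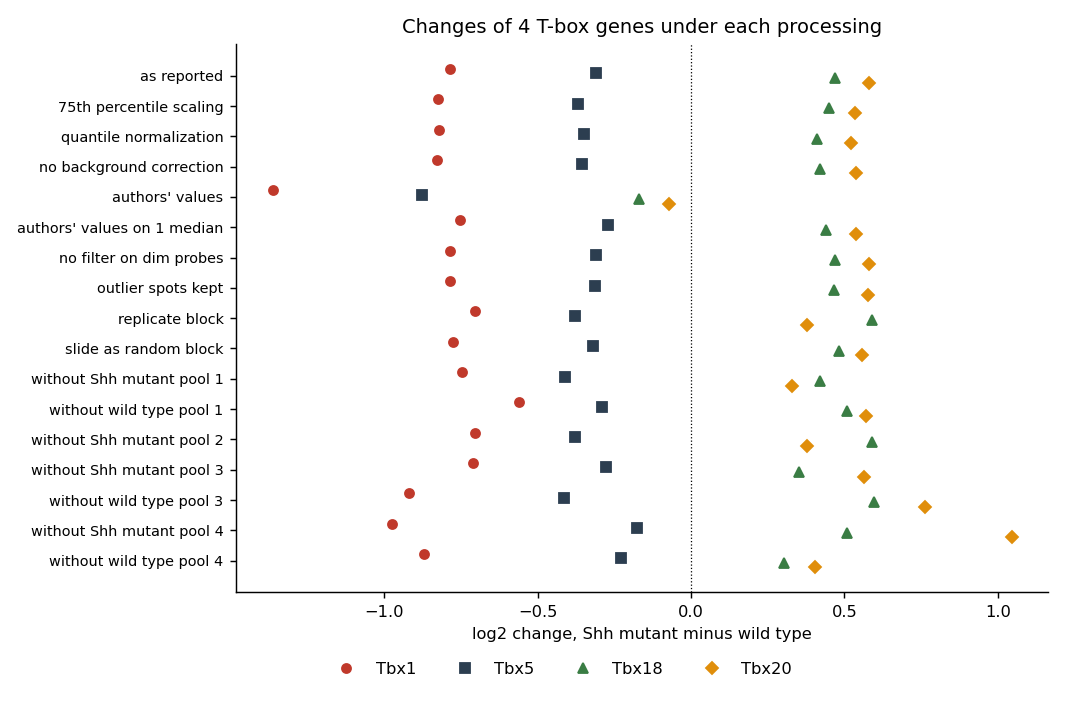
Log2 change of the brightest probe of *Tbx1*, *Tbx5*, *Tbx18* and *Tbx20* as reported and under each other processing, one line per processing; "pool" marks the array left out. *Tbx1* and *Tbx5* stay below 0 throughout, and *Tbx18* and *Tbx20* stay above 0 except with the authors' values, where the median change of all probes is itself at −0.54.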

How the data were processed

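RNA of 7 pools was measured on single-colour arrays. The authors' deposited scan files hold intensity values, the mean signal and background of each spot (Feature Extraction 10.5.1.1, per the labels), and a table with 26255 probes holds the authors' normalized log2 values; their methods name background correction, VSN and SAM. Medians of that table differ between arrays (5.50 to 9.93), and its centring is not given in the sources used here.

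Mean signals were corrected by normexp from 153 negative control spots (offset 50), outlier spots (155 to 206 an array) left out, and VSN (own implementation, trimming share 0.9, 7 iterations, 5 strata) applied. Spots of a probe were averaged. A gene-named probe was tested when well above background on every array of 1 genotype (23124 probes, 14896 genes). A gene is read by its brightest probe. Differences were tested with limma 3.58.1 (R 4.3.3, data.table of version 1.17.8) at an adjusted p of 0.05; SAM was not run. Linear summed signals add 2 to the power of the normalized log2 value, so the brightest genes of a list weigh most. The number of arrays limits the precision. The test was checked on simulated data. Python 3.11.15, numpy 2.4.6, pandas 2.3.3 and matplotlib 3.10.9 made tables and figures.

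Genotype and pool number came from the sample titles; the entries for strain and genotype had changed places. Probe positions are on mm9, as the files give. Exon and UTR annotation of that build was not used here.

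Pool numbers mark a shared slide in the labels, so they pair the arrays. Deviations from the genotype means correlated at 0.192, 0.238 and 0.0330 within slides and at −0.22 to 0.187 between slides.

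Named were all members; of each list the genes called or, with none called, the 2 of largest change with 1 sign in all 3 slides; the 3 genes most like *Tbx1* and *Tbx5*; and *Shh*, *Gli1*, *Ptch1* and *Hhip*. Some genes that this rule names are not reported here. *Shox2*, *Hcn4*, *Nppa*, *Myh6*, *Ryr2*, *Atp2a2*, *Mga*, *Foxf1a*, *Prrx1*, *Prrx2* and the genes at background were added after their values were seen. Members and lists were chosen with earlier results of these data known. Alternatives were 75th percentile scaling, quantile normalization, the authors' values, no background correction, dim probes kept, outlier spots kept, slide as fixed or random block, and each array left out; the authors' values on 1 median per array were added after seeing the data.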

Additional observations from a re-analysis of the deposited data

Results flagged for a closer look

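In mutant pool 4 *Tbx1* read 13.40, apart from the other mutant pools at 12.59 to 12.71. The gap to the nearest pool was 0.847 of the range of the 4 mutant pools, above the Dixon limit of 0.829. It was the only one of 17 sets of mutant values tested (the 12 T-box probes, *Tbx1* minus *Tbx5* and the 4 genes that check the labels) to pass that limit, which chance alone passes in about 5% of groups. The cause was not tested.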

How the results depend on the processing

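No T-box probe was called under any of the 16 alternatives. *Tbx1* stayed lower in all of them (−1.36 to −0.56, adjusted p 0.104 to 0.934), as did *Tbx5* (−0.88 to −0.18). Not all of the 16 could move a change separately. Keeping dim probes leaves the change of a probe as it was. The replicate block gives the same change as leaving out mutant pool 2, which shared its slide with no other array used here (*Tbx1* −0.70 and *Tbx5* −0.38 in both). With the authors' values, whose array medians run from 5.50 to 9.93 and whose median change is −0.54, 4 signs turned: *Tbx18* −0.17 and its second probe −0.0079, *Tbx20* −0.073 and its second probe −0.093. Set to 1 median per array, they gave 0.44, 0.60, 0.54 and 0.52, and turned *Tbx3* to 0.17. The changes near 0 turned with 1 array left out: *Tbx2* to 0.048 without wild-type pool 1 (range −0.16 to 0.048), *Tbx6* to 0.093 without mutant pool 1 (−0.20 to 0.093), *Tbx3* to 0.034, 0.037, 0.0033 and 0.0060 without mutant pool 1, wild-type pool 1, mutant pool 3 and wild-type pool 4 (−0.13 to 0.037), and the second *Tbx5* probe to 0.0087 and 0.12 without mutant pool 2 and wild-type pool 4 (−0.30 to 0.12). With each array left out, 3 to 5 genes had a lower mean, 3 without mutant or wild-type pool 1.

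Paired by slide, with the replicate block, *Tbx1* was −0.70, *Tbx1* minus *Tbx5* −0.32 and the second *Tbx5* probe 0.0087. With the block, 5 of the 12 member probes had a limma unadjusted p under 0.05, against 2098 of all 23124 probes tested. No member call changed. Of all probes 11 were then called in place of 129, 54 by 75th percentile scaling, 33 with no filter on dim probes, 0 (28 at an unadjusted p under 0.05) by the authors' values and 0 (1039) on 1 median, and 12 to 136 with 1 array left out, 12, 14, 30, 35, 37 and 73 without mutant pool 3, wild-type pools 1, 3 and 4 and mutant pools 2 and 4. The list genes called, 8 as reported, numbered 1 under the block, 75th percentile scaling and no filter, 0 by the authors' values on either scale, and 1 to 7 with 1 array left out (1 without wild-type pools 1 or 3 or mutant pool 2, 2 without mutant pool 3 or wild-type pool 4, 3 without mutant pool 4); *Foxf2* was called in 14 of the 16. No value of *Tbx1* minus *Tbx5* was computed with slide as a random block. The share lower among all calls was 52.7%, 66.7% by 75th percentile scaling, 69.7% with no filter, 90.9% with the block and 43.4% to 100% with 1 array left out (lowest without mutant pool 1, highest without mutant pool 3). The causes were not tested. Probes near background limit *Tbx4*, and the second *Tbx3* probe.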
